A study of Homo sapiens with 42 samples.

Results

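The 139 regions described here are the human satellite 3 (HSat3) arrays that a count table of 2523 named genome regions places on autosomes. They were chosen by name alone: the name starts with the satellite class and its chromosome field is a number. Of the 139 regions, 3 were on chromosome 9, 94 on the acrocentric chromosomes 13, 14, 15, 21 and 22, and 42 on chromosomes 1, 2, 3, 4, 5, 7, 10, 16, 17 and 20. A further 50 HSat3 regions were not on autosomes and 61 regions belonged to the related satellite HSat2.

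HSat3 is a tandem repeat of a short, degenerate simple sequence that builds long blocks of heterochromatin beside the centromere of chromosome 9 and on the short arms of the acrocentric chromosomes, next to the ribosomal DNA. Its subfamilies, lettered A and B with a number, differ in sequence and in the chromosomes they occupy, and some arrays are transcribed under heat shock into RNA that collects in nuclear stress bodies. Type II topoisomerases pass one DNA duplex through a break they make in another and stay bound to the broken ends meanwhile. TOP2A is the isoform of dividing cells and TOP2B is also made in cells that do not divide. Etoposide and mitoxantrone hold both enzymes on the cut DNA.

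The DNA came from the established cell line KG-1, grown from a human acute myelogenous leukaemia. Cells had been kept for 1 h in 100 µM etoposide, in 20 µM mitoxantrone or in vehicle, which the sample names call no drug. From each treatment, DNA was pulled down without formaldehyde fixation by an antibody to TOP2A or to TOP2B, or kept as input; the enzyme TDP2 then released TOP2 from the blocked 5′ ends, and the DNA was cut with BsmAI. There were 4 replicas for etoposide and 3 for mitoxantrone, all with 6 libraries (drug and no drug for each of TOP2A, TOP2B and input), which made 42 libraries in 12 groups, and each series had vehicle controls of its own.

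The libraries held between 23900 and 3207823 reads in named regions, called region reads below, and 6 had under 100000: TOP2A with etoposide in replicas 2 and 3, TOP2B and input with etoposide in replica 3, TOP2A without drug in replica 3 of the etoposide series, and TOP2A without drug in replica 2 of the mitoxantrone series. Reads of low mapping quality made up 21.1% to 68.3% of the reads (median 36.8%). Such reads were not assigned to a region, so the counts below cover only the parts of these repeats to which a read could be assigned. By the order or project number in the labels, the 7 replicas fell into 5 orders. Read lengths were 38, 50 or 100 bp. Etoposide replicas 3 and 4 shared an order with mitoxantrone replica 2. The labels do not say whether the replicas were grown separately, so p-values measure the spread between these samples, which may be technical. All values are shares of a bulk library, so more or fewer cut sites, more or fewer cells with cuts and a change in the other regions cannot be told apart. Levels were not divided by region length, so they were compared between conditions and, between regions, only as amounts of reads.

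The HSat3 regions held 237306 reads in all 42 libraries together, between 171 and 46690 per library. The reads were concentrated: 13 regions held 50% of them and the 10 regions with the highest mean level held 45.1%. No library had a read in 3 regions (hsat3_13_5, hsat3_7_11 and hsat3_7_12), 20 averaged under 1 read per library and 16 had reads in all 42 libraries. Over the pooled reads, chromosome 22 had the most HSat3 reads, 15.9% over 23 regions, followed by chromosome 9 with 14.7% over 3 regions, chromosome 17 with 13.8% over 5 and chromosome 15 with 12.1% over 14. Chromosome 14 had 9.80% and chromosome 10 had 9.10%. Pooled reads weight the deep libraries. With each library weighted equally chromosome 9 came first, at a mean of 18.3% of a library's HSat3 reads beside 14.4% for chromosome 22, and at a mean level of 1355 CPM beside 1062 CPM. The remaining chromosomes each had between 0.162% (chromosome 2) and 5.74% (chromosome 20). The acrocentric chromosomes together had 44.8% and the 10 other autosomes had 40.5%.

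The most heavily read region was hsat3_9_3, the chromosome 9 array assigned to subfamily B5 and the only region of that subfamily. It had 1116 CPM on average (SD 1148 over 42 libraries; CPM is reads per 1000000 region reads), with a lowest value of 57.4, a median of 755 and a highest value of 4242, and it made up 79.4% of the chromosome 9 reads. The next in level were hsat3_20_3 (subfamilies B3, A1 and A2) with a mean of 406 CPM (SD 325), hsat3_15_7 (A5 and A2), the only region whose name leads with A5, with 300.5 CPM (SD 249), and hsat3_17_5 (A2 and A4) with 298 CPM (SD 253). The SD of each over libraries was close to its mean. The regions were measured in the same libraries and their differences within a library were not tested, so their order is a description. The other 6 of the 10 highest were hsat3_17_1, hsat3_22_10, hsat3_10_2, hsat3_15_12, hsat3_9_2 and hsat3_17_4, with means from 282 down to 163 CPM. Several chromosomes depended on a few regions: hsat3_20_3 gave 92.4% of the chromosome 20 reads, hsat3_21_8 gave 54.6% of those of chromosome 21 and hsat3_10_2 gave 40.3% of those of chromosome 10.

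The region names give 1 or more subfamilies, and 37 regions have more than 1. Regions led by A4 were the largest set, 74 regions with 34.7% of the HSat3 reads. The 29 regions led by B3 had 21.7% of the reads, the 9 led by A2 had 17.2% and the 13 led by A1 had 6.40%. Subfamily B4 led 5 regions, 1 on each acrocentric chromosome, with 1.80% of the reads.

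The share of region reads in HSat3 differed between replicas more than between treatments or kinds of library. Over all 42 libraries it ran from 0.0539% to 2.00% with a median of 0.647%. The median over the 6 libraries of a replica was 0.0859% in etoposide replica 1, 0.978% in replica 2, 0.545% in replica 3 and 0.144% in replica 4. In the mitoxantrone series it was 1.57%, 0.235% and 0.953%. Every library of etoposide replica 1 was therefore below every library of etoposide replica 2, whatever its treatment. The share in each library was estimated closely against this spread: the widest 95% Wilson interval, that of TOP2A with etoposide in replica 3, ran from 1.38% to 1.69%. These intervals cover counting error only, and PCR copies of a molecule are not independent.

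**Figure D1:**
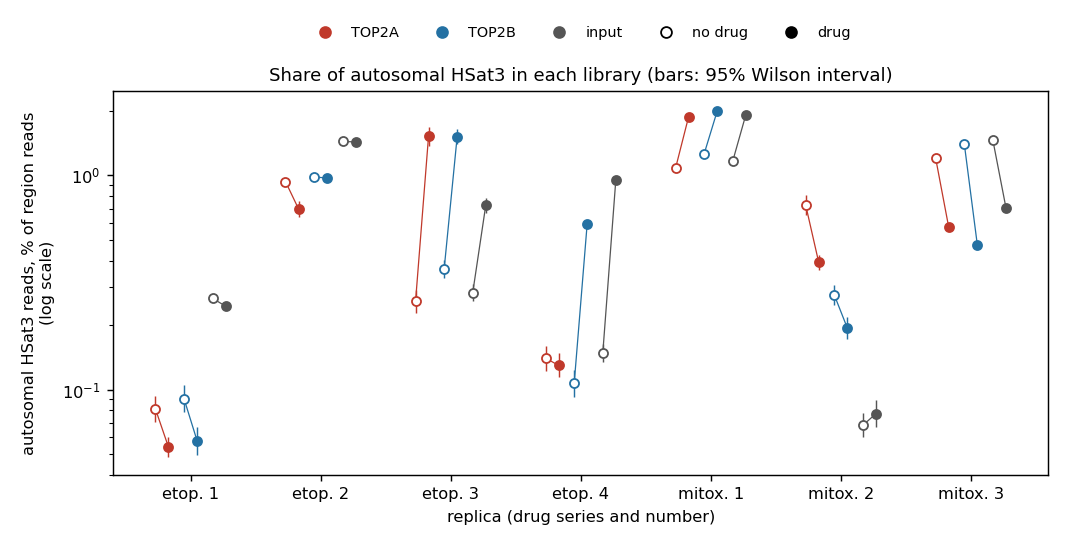
Share of region reads in the autosomal HSat3 regions, in percent on a log axis, for each of the 42 libraries by replica. Red is TOP2A, blue TOP2B and grey input; open points are no drug and filled points drug, a line joins the pair of a replica and bars are 95% Wilson intervals. Replica medians ran from 0.0859% to 1.57%, and drug lies above no drug in some replicas and below it in others.

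The HSat3 reads were split between chromosome 9, the acrocentric chromosomes and the other autosomes in proportions that varied far less than the total. Chromosome 9 had 7.79% to 31.7% of the HSat3 reads of a library. The acrocentric chromosomes had 31.1% to 57.6% (median 42.7%). The chromosome 9 part differed between orders. Its median was 24.2% in the order that held etoposide replicas 3 and 4 and mitoxantrone replica 2. In the other 4 orders it was between 11.0% and 22.1%. The part of the order in the differences between replicas was not tested.

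**Figure D2:**
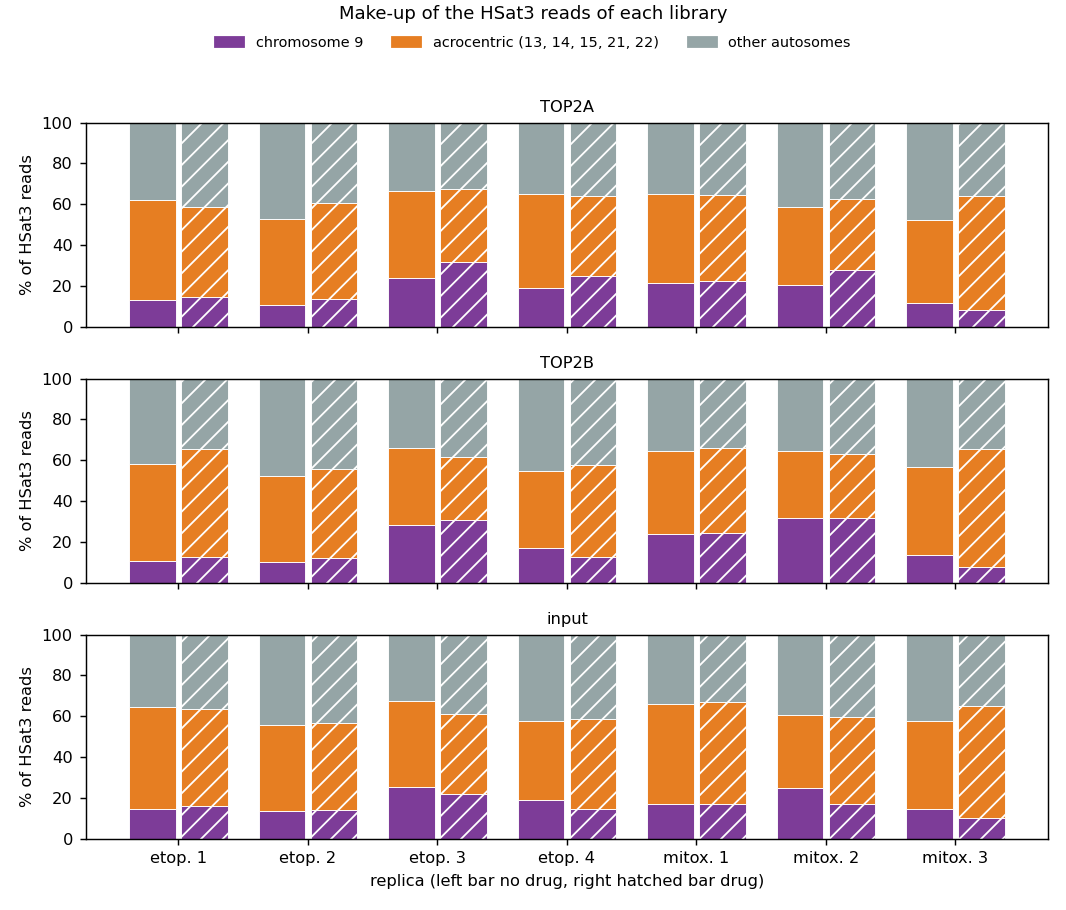
Percent of the HSat3 reads of each library on chromosome 9, on the acrocentric chromosomes and on the other autosomes, as stacked bars. The panels are TOP2A, TOP2B and input, and in each pair the left bar is no drug and the right, hatched bar is drug. The chromosome 9 part is tallest, at 31.7%, in TOP2B of mitoxantrone replica 2, and the acrocentric part, at 57.6%, in TOP2B with mitoxantrone of replica 3.

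Etoposide against no drug asks whether trapping TOP2 changes how much HSat3 DNA is recovered. Changes per replica between etoposide and no drug, here and below, match libraries by replica number. Same-numbered libraries of this series deviated together in only 9 of 12 pairs (r over 0.1), so the numbers were not taken to pair them. Counts of replicas and SDs of these changes are therefore descriptions. No HSat3 region passed the test in the TOP2A, TOP2B or input libraries. The share of region reads in HSat3 in TOP2A libraries was 0.0811%, 0.936%, 0.258% and 0.140% in replicas 1 to 4 without drug. With etoposide it was 0.0539%, 0.698%, 1.52% and 0.130%. It was lower with etoposide in replicas 1, 2 and 4 and higher in replica 3, and the groups overlapped. The log2 difference was 0.36 on average (SD 1.48, n = 4), and -0.37 without replica 3, whose TOP2A library with etoposide was the shallowest of all.

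In TOP2B libraries the share was 0.0905%, 0.983%, 0.365% and 0.107% without drug. With etoposide it was 0.0577%, 0.972%, 1.52% and 0.596%. Here replicas 3 and 4 were higher with the drug, replica 2 nearly level and replica 1 lower (mean log2 difference 0.97, SD 1.53; 0.46 without replica 4). Input had 0.266%, 1.44%, 0.284% and 0.148% without drug. With etoposide it had 0.245%, 1.43%, 0.725% and 0.950% (mean log2 difference 0.98, SD 1.32). Replica 4 alone gave a difference of 2.68 in input, and the mean without it was 0.41, so the groups overlapped in all 3 kinds of library.

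Across regions, 58 of the 139 HSat3 regions passed the filter on low counts in the etoposide series, and they held 92.6% of the HSat3 reads: 3 on chromosome 9, 33 on acrocentric chromosomes and 22 elsewhere. By edgeR's quasi-likelihood test with Benjamini-Hochberg adjustment over all 1068 regions tested, 0 HSat3 regions passed an adjusted p of 0.05 for TOP2A, TOP2B or input, as did 0% of all regions. At an unadjusted p under 0.05, 1 HSat3 region passed for TOP2A (0.655% of all regions did), 1 for TOP2B (0.749%) and 0 for input (0%). DESeq2 and limma-voom called 0 as well. The estimates of the 58 regions lay above 0 in 25 for TOP2A (44.6% of all regions), in 58 for TOP2B (54.4%) and in 57 for input (57.5%). Their medians on the log2 scale were -0.14, 0.74 and 0.55, beside medians of -0.05, 0.07 and 0.09 over all regions tested.

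The 2 regions with the lowest unadjusted p upward in TOP2A were hsat3_22_2, a B4 array on chromosome 22, and hsat3_5_1, the single HSat3 region of chromosome 5 (subfamily B3), with log2 differences of 2.17 (SE 1.28) and 2.11 (SE 1.38). Downward they were hsat3_14_16, a chromosome 14 array of subfamilies A4 and A1, with -4.09 (SE 1.63), and hsat3_22_12, an A4 array on chromosome 22, with -2.83 (SE 1.61). None of these passed (adjusted p = 0.999 each, edgeR). By share within replicas, hsat3_5_1, hsat3_14_16 and hsat3_22_12 were each higher in 2 of 4 replicas and lower in 2. Their mean log2 differences by that measure were 0.33, -1.49 and -0.83. For hsat3_22_2 the mean was 0.97, higher in 3 of 4. hsat3_22_2 had 4.03, 35.6, 42.1 and 19.4 CPM in TOP2A without drug and 5.20, 28.1, 628 and 22.1 with etoposide. The high value was that of the shallow replica 3 library, 15 reads. For the chromosome 9 array hsat3_9_3, TOP2A gave 84.7, 782, 495 and 258 CPM without drug and 69.3, 746, 4017 and 276 CPM with etoposide. Replica 3 was high, replica 4 slightly higher with drug and replicas 1 and 2 slightly lower, for a log2 difference of 1.34 (SE 1.00, adjusted p = 0.999, edgeR).

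Within the HSat3 reads, chromosome 9 took a larger part of TOP2A libraries with etoposide than without in 4 of 4 replicas. Its part was 12.9%, 10.7%, 23.7% and 18.9% without drug. It was 14.8%, 13.5%, 31.6% and 24.7% with etoposide, a mean gain of 4.58 percentage points (SD 2.79). Each library was above the no-drug library of the same number, a match that the data did not bear out in all pairs. The groups overlapped because replicas 3 and 4 were high in both. The TOP2B part gained 0.47 points (SD 3.21, higher in 3 of 4) and the input part changed by -1.35 points (SD 2.78, higher in 2 of 4). The gain in TOP2A less that in input was 5.94 points (SD 5.42), with 0.30, 2.34, 11.1 and 10.0 in replicas 1 to 4. With hsat3_9_3 left out of both the part and the total, the gain was 1.32 points. That region held 79.4% of the chromosome 9 reads, so a smaller gain in points does not assign the gain to it. As a share of region reads, hsat3_9_3 was higher with etoposide in 2 of 4 replicas. By the same measure hsat3_9_2 was higher in 4 of 4 and hsat3_9_1 in 1 of 4. The TOP2A libraries of replicas 1, 3 and 4 held only 26, 58 and 41 chromosome 9 reads without drug and 46, 115 and 58 with etoposide. No test of the gain was run.

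Mitoxantrone against no drug gave 3 replicas that went different ways. The share of region reads in HSat3 in TOP2A libraries was 1.08%, 0.727% and 1.20% without drug and 1.88%, 0.393% and 0.573% with mitoxantrone. In TOP2B libraries it was 1.26%, 0.277% and 1.40% without drug, and 2.00%, 0.194% and 0.474% with it. In input it was 1.17%, 0.0681% and 1.46% without drug, and 1.92%, 0.0771% and 0.707% with it. Replica 1 was higher with the drug in all 3 kinds of library and replica 3 was lower in all 3, input included. The mean log2 differences were -0.39 (SD 1.03), -0.47 (SD 1.11) and -0.05 (SD 0.90), each within the spread between replicas.

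Of the 86 HSat3 regions tested in the mitoxantrone series, 0 passed for TOP2A, TOP2B or input (edgeR, adjusted over 1416 regions, of which 0% passed). None passed at an unadjusted p under 0.05 either, where 0.353%, 0.212% and 0.0706% of all regions did, and DESeq2 and limma-voom called 0. The estimates were above 0 in 40, 28 and 44 of the 86 regions, beside 46.8%, 51.2% and 43.6% of all regions, with medians of -0.04, -0.17 and 0.02. The region with the largest downward estimate among those with the lowest p in TOP2A was hsat3_22_18, an A1 array, at -1.37 (SE 1.20, adjusted p = 0.998, edgeR), lower in 3 of 3 replicas.

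Replica 3 of the mitoxantrone series changed the makeup of its HSat3 reads in the same way in all 3 kinds of library. The acrocentric part was 40.8% without drug and 55.7% with it in TOP2A, 42.9% and 57.6% in TOP2B, and 43.1% and 54.8% in input. Chromosome 9 went the other way, from 11.6% to 8.22% in TOP2A, from 13.6% to 7.79% in TOP2B and from 14.4% to 10.3% in input. In this replica the regions led by an A subfamily were lower by 0.77, 1.17 and 0.74 on the log2 scale in TOP2A, TOP2B and input, and those led by a B subfamily by 1.83, 2.57 and 1.69. In replicas 1 and 2 the pulldowns changed less: their acrocentric part changed by -1.54 and -3.27 points in TOP2A and by 0.85 and -1.45 points in TOP2B. In input the acrocentric part was higher with mitoxantrone in 3 of 3 replicas by 0.88, 6.81 and 11.7 points (mean 6.46, SD 5.42; 3.85 without replica 3). The chromosome 9 part was lower in 3 of 3, by -0.10, -7.72 and -4.12 points (mean -3.98, SD 3.81; -2.11 without replica 2).

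**Figure D3:**
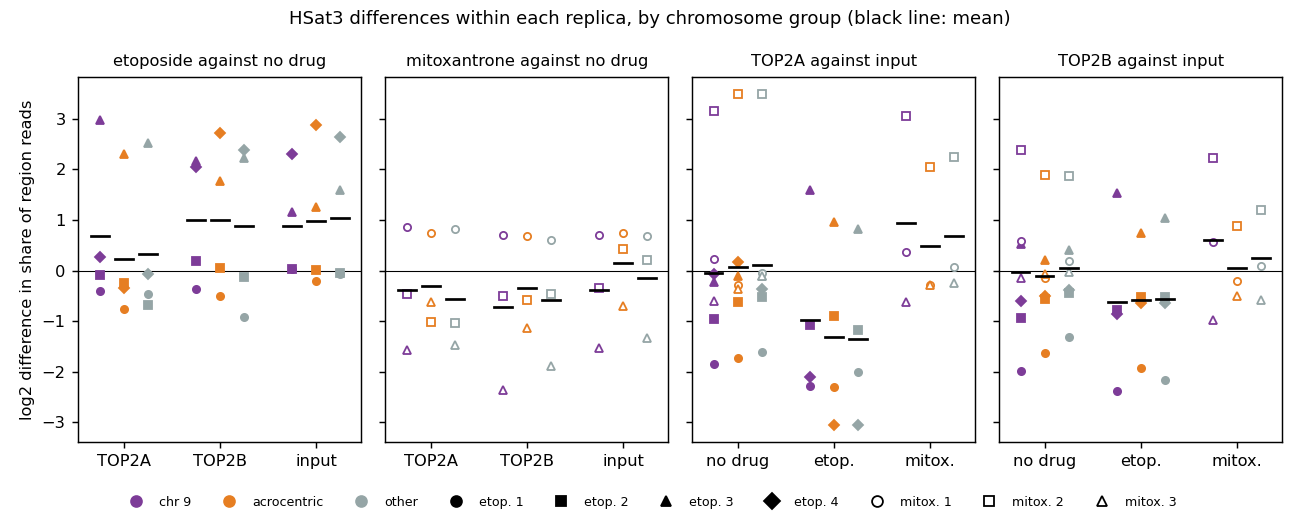
Log2 differences of the HSat3 share within each replica, for chromosome 9, the acrocentric chromosomes and the other autosomes. The panels are etoposide against no drug, mitoxantrone against no drug, TOP2A against input and TOP2B against input; a point is a replica and a black line the mean. The 3 chromosome groups of a replica need not lie on the same side of 0: TOP2A of replica 4 with etoposide had 0.27 on chromosome 9, -0.35 on the acrocentric chromosomes and -0.07 on the others.

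Without drug, the HSat3 share of either pulldown differed from that of input by less than the spread between replicas. The log2 difference of TOP2A from input in the same replica and treatment was -1.71, -0.62, -0.14 and -0.08 in the etoposide series and -0.11, 3.42 and -0.28 in the mitoxantrone series. TOP2A was lower in 6 of 7 replicas, and the mean was 0.07 (SD 1.59), or -0.49 without mitoxantrone replica 2, whose TOP2A library was shallow and whose input had a share of 0.0681%. For TOP2B the differences were -1.55, -0.55, 0.36 and -0.47, then 0.11, 2.02 and -0.05 (mean -0.02, SD 1.09; -0.36 without mitoxantrone replica 2). The acrocentric part of the HSat3 reads was lower in TOP2B than in input in 7 of 7 replicas, by 2.74 points on average (SD 2.82).

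Of the 78 HSat3 regions tested over all libraries, 0 passed for TOP2A against input without drug (edgeR with the replica and treatment as a block, adjusted over 1372 regions), where 15 regions or 1.09% of all passed. At an unadjusted p under 0.05, 18 HSat3 regions passed beside 12.2% of all regions; DESeq2 called 0 and limma-voom 4. The estimates were below 0 in 71 of 78, beside 58.7% of all regions, with a median of -0.48 against -0.07 for all. The nearest to the threshold was hsat3_20_1, an A4 array on chromosome 20, at -1.53 (SE 0.40, adjusted p = 0.0532, edgeR). It was lower in 5 of 7 replicas. Next was hsat3_22_15, an A4 array on chromosome 22, at -1.11 (SE 0.32, adjusted p = 0.0843).

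For TOP2B against input without drug, 0 HSat3 regions passed and 1 region of 1372 did (0.0729%, edgeR). At an unadjusted p under 0.05 there were 7 HSat3 regions beside 7.36% of all, and DESeq2 and limma-voom called 0. The estimates were below 0 in 71 of 78, beside 59.5% of all regions, with a median of -0.38. hsat3_14_13, an A4 array on chromosome 14, was lower in 7 of 7 replicas at -1.0 (SE 0.37, adjusted p = 0.390, edgeR). Between TOP2A and TOP2B without drug, 0 regions passed (0%), and 0 HSat3 regions had an unadjusted p under 0.05 beside 0.292% of all.

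With etoposide, TOP2A libraries held less of many HSat3 regions than the inputs of the same replicas. Of 78 regions tested, 17 were lower and 0 higher at an adjusted p of 0.05 (edgeR quasi-likelihood, Benjamini-Hochberg over 1372 regions), where 2.84% of all regions passed: 2.7% lower and 0.146% higher. All 78 estimates lay below 0, as did 65.6% of all regions, and the median was -1.61 beside -0.23. Within the etoposide series alone, 58 HSat3 regions passed the filter on low counts. Some of the 78 thus entered only through the mitoxantrone libraries and can lie near the floor with etoposide. They count in the estimates, the median and the calls, here and in the other pulldown comparisons with etoposide. The 17 regions lay on 8 chromosomes: 6 of 16 tested on chromosome 22, 3 of 10 on chromosome 15, 2 of 13 on chromosome 14, 2 of 5 on chromosome 10, and 1 each on chromosomes 1, 3, 13 and 17. None of the 3 regions of chromosome 9 or of the 7 tested on chromosome 21 passed. The vehicle comparison of the same antibody gave 0, and whether the drug changed the difference is tested further on.

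The share of HSat3 behind these calls was not uniform over the replicas. Replicas 1, 2 and 4 had less HSat3 in TOP2A than in input, by -2.18, -1.04 and -2.87 on the log2 scale, while replica 3 had more, by 1.07 (mean -1.25, SD 1.73; -2.03 without replica 3). In replica 4 the TOP2A share was close to its vehicle value, 0.130% and 0.140%, and the input share was higher with drug, 0.950% and 0.148%. Reads of low mapping quality were 22.1%, 52.1%, 36.6% and 40.4% of the TOP2A libraries and 26.7%, 28.7%, 37.1% and 35.8% of the inputs in replicas 1 to 4. Their part in the difference was not tested.

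Among well-read regions that passed, hsat3_22_10 (A4 and A2, chromosome 22) had 19.1, 281.5, 125.5 and 33.1 CPM in TOP2A with etoposide and 132, 527, 245.6 and 393 CPM in input. TOP2A was below its own input in 4 of 4 replicas, although the groups overlapped because replica 2 was high in both. The log2 difference was -2.08 (SE 0.41, adjusted p = 0.0146, edgeR). Its TOP2A reads numbered 40 over the 4 replicas, where the inputs' shares would have given 191, a ratio of 0.209 (exact 95% Poisson interval 0.150 to 0.285). This interval and those of the ratios below take the expected reads as fixed, so they leave out counting error in the input. TOP2B with etoposide had 16.9, 385, 487 and 227 CPM of this region, for a ratio of 0.675 (0.610 to 0.745).

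The region hsat3_17_4, an A2 array on chromosome 17, had 10.4, 140.7, 125.5 and 16.6 CPM in TOP2A and 44.1, 419.6, 284 and 233 CPM in input. It was lower in 4 of 4 replicas (log2 difference -2.16, SE 0.46, adjusted p = 0.0146), and the highest TOP2A value was under the third highest input value. hsat3_3_1, the only HSat3 region of chromosome 3 (A4), had 13.9, 28.1, 41.8 and 11.0 CPM in TOP2A and 32.0, 210, 129 and 102.6 CPM in input. It too was lower in 4 of 4 (-2.10, SE 0.44, adjusted p = 0.0146), and only replica 1 of input lay inside the TOP2A range. hsat3_22_11 (A4) had 8.66, 56.3, 83.7 and 5.52 CPM in TOP2A and 80.5, 210.3, 77.5 and 146 CPM in input, so replica 3 was slightly higher in TOP2A (-2.65, SE 0.56, adjusted p = 0.0146).

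The largest measured difference was that of hsat3_14_16, the A4 and A1 array on chromosome 14. With etoposide it had 1, 0, 0 and 0 reads in TOP2A, 2, 56, 12 and 9 in TOP2B, and 13, 118, 3 and 49 in input. A single TOP2A read stood where 32.0 were expected from input, a ratio of 0.0312 (exact Poisson interval 0.000791 to 0.174), whereas TOP2B had 79 reads against 115 expected (0.686, 0.543 to 0.855). Without drug the TOP2A libraries of replicas 1 to 4 of the etoposide series had 0, 41, 1 and 4 reads of it, nearly all in replica 2. How well the antibody recovers this region was not tested. The fitted log2 difference was -4.69 (SE 1.02, adjusted p = 0.0146, edgeR) and depends on the prior count.

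Other regions with few TOP2A reads passed as well. hsat3_22_12 (A4) had 2, 0, 0 and 0 TOP2A reads and 7, 110, 2 and 33 input reads, a ratio of 0.0895 (0.0108 to 0.323). hsat3_10_5 (A1, chromosome 10) had 1, 1, 1 and 0 reads against 10, 111, 5 and 30 in input, a ratio of 0.123 (0.0255 to 0.361). hsat3_15_13 (A4) had 0 TOP2A reads in 4 of 4 replicas where 17.9 were expected, at least 5.98-fold lower taking 3 reads over the group as the floor. For hsat3_13_15 (A4), chosen for mention after its values were seen, 0 reads stood against 11.2 expected, at least 3.72-fold lower. Both had reads in TOP2B with etoposide (21 and 14) and in TOP2A without drug (66 and 48 over 7 replicas). These 7 replicas include those of the mitoxantrone series. Neither region passed the filter on low counts within the etoposide series. Both were tested here only because the fit also held the mitoxantrone libraries, so they lie near the floor in the etoposide libraries. The remaining named regions were hsat3_14_12 (A1 and A4; -2.78, SE 0.78, adjusted p = 0.0482), hsat3_15_2 (B4; -2.44, SE 0.64, adjusted p = 0.0480) and hsat3_22_15 (-2.38, SE 0.51, adjusted p = 0.0146).

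Among the 10 regions with the highest level, only hsat3_22_10 and hsat3_17_4 passed. The chromosome 9 array hsat3_9_3 had 69.3, 746, 4017 and 276 CPM in TOP2A with etoposide and 312, 1482, 1279.5 and 1069 CPM in input. Replica 3 was above its input and the other replicas were below theirs, and the log2 difference was -1.09 (SE 0.51, adjusted p = 0.237, edgeR). hsat3_20_3 came close, at -1.64 (adjusted p = 0.0657). The regions just outside the threshold were hsat3_14_21 (-1.79, adjusted p = 0.0527) and hsat3_15_14 (-2.22, adjusted p = 0.0539).

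**Figure D4:**
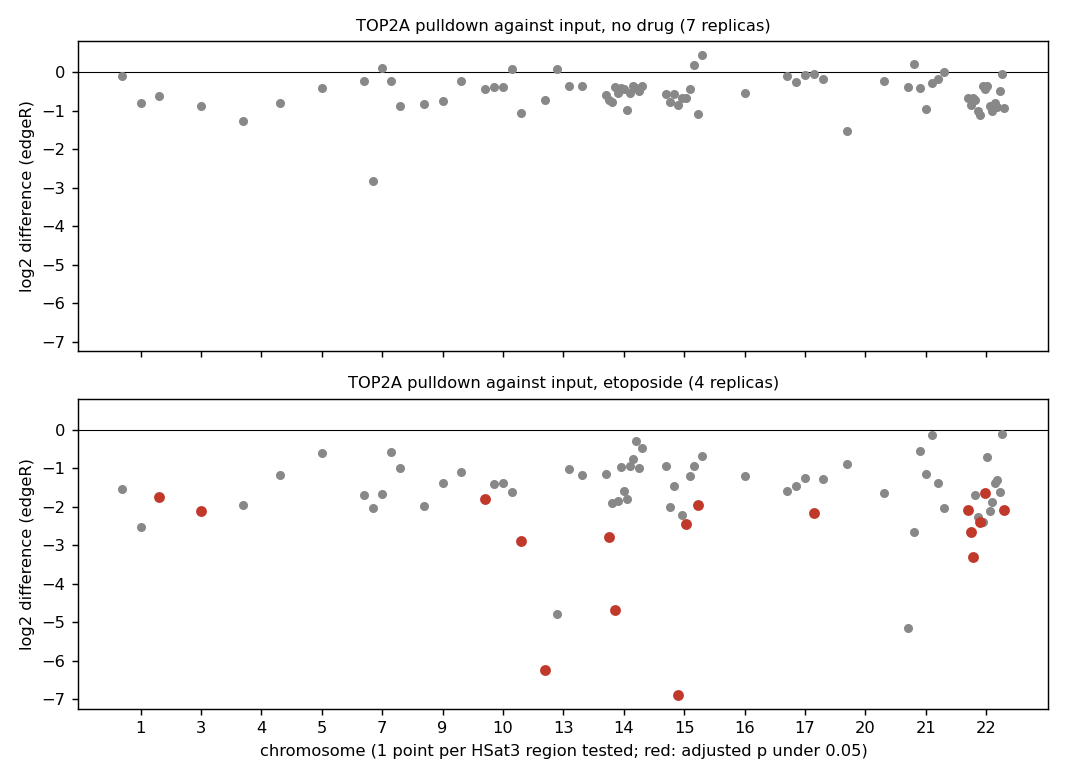
Log2 difference of TOP2A from input (edgeR estimate) for each of the 78 HSat3 regions tested, by chromosome, without drug over 7 replicas in the upper panel and with etoposide over 4 replicas in the lower. Red marks an adjusted p under 0.05. No point is red above and 17 are red below, all under 0; estimates near -5 to -7 belong to regions with 0 or few TOP2A reads and are no bounds.

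Pooled over the 4 replicas, all 139 HSat3 regions together had 1406 TOP2A reads with etoposide where the inputs' shares would have given 4327, a ratio of 0.325 (0.308 to 0.342). The ratio was 0.435 (0.386 to 0.489) on chromosome 9, 0.306 (0.282 to 0.332) on the acrocentric chromosomes and 0.304 (0.279 to 0.331) on the others. These intervals cover counting error in the pulldown reads only. Replica 3, with TOP2A above input, gave 115 of the 286 chromosome 9 reads and 38.3 of the 657 expected. Without it the ratio was 0.251 (0.236 to 0.267) for all HSat3, 0.276 (0.236 to 0.321) on chromosome 9, 0.247 (0.225 to 0.271) on the acrocentric chromosomes and 0.246 (0.223 to 0.271) on the others, and these last 3 intervals overlapped. TOP2B with etoposide had 0.672 (0.659 to 0.685), TOP2A with mitoxantrone 0.931, and TOP2A without drug 0.795. Per replica, 19 of the 78 regions (24.4%) were lower in TOP2A than in input in 4 of 4 replicas with etoposide, beside 10.1% of all regions tested.

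Summed per chromosome, HSat3 of all 16 chromosomes had an estimate below 0 for TOP2A against input with etoposide (69.2% of all sums did), with a median of -1.27 beside -0.45 over all 182 sums of a class on a chromosome. None of the 16 passed, as 0% of all sums did (edgeR). At an unadjusted p under 0.05, 12 passed beside 22.5% of all, DESeq2 called 0 and limma-voom 1. The lowest were chromosome 3 (-1.96, SE 0.55, adjusted p = 0.0542), chromosome 22 (-1.52, SE 0.41, adjusted p = 0.0542) and chromosome 1 (-1.51, SE 0.47, adjusted p = 0.0542). Chromosome 9 was at -1.04 (SE 0.47, adjusted p = 0.164) and chromosome 5 at -0.55. Within replicas the chromosome 22 sum differed by -2.35, -1.10, 0.49 and -3.33, and the chromosome 9 sum by -2.29, -1.07, 1.59 and -2.10.

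These calls rested on the settings. DESeq2 called 19 HSat3 regions, 15 of them among the 17. Scaling by region reads alone left 8, limma-voom and a fit without the replicate block left 0, and leaving out a replica gave 0 (etoposide replica 4, mitoxantrone replica 1 or mitoxantrone replica 3), 2 (etoposide replica 1 or 2), 25 (mitoxantrone replica 2) or 35 (etoposide replica 3). Without the 6 shallow libraries 35 regions passed, 15 of them among the 17.

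TOP2B with etoposide was lower than input to a smaller extent. The log2 differences of the HSat3 share were -2.08, -0.56, 1.06 and -0.67 (mean -0.56, SD 1.29; -1.11 without replica 3 and -0.06 without replica 1). No HSat3 region passed (0% of all did; edgeR), 8 had an unadjusted p under 0.05 beside 6.05% of all, DESeq2 called 0 and limma-voom 6. The estimates were below 0 in 76 of 78, beside 62% of all regions, with a median of -0.65 against -0.12. The lowest p was that of hsat3_22_14, a B3 array, at -1.91 (SE 0.51, adjusted p = 0.578), lower in 4 of 4 replicas.

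Compared directly, TOP2A had less HSat3 than TOP2B with etoposide in most regions, without a call. The HSat3 shares differed by -0.10, -0.48, 0.01 and -2.20 on the log2 scale (mean -0.69, SD 1.02; -0.19 without replica 4), so replica 4 carried most of it. Of 78 regions 0 passed (0% of all, edgeR; DESeq2 and limma-voom 0), 22 had an unadjusted p under 0.05 beside 10.9% of all, and 71 estimates were below 0 beside 58.2% of all. hsat3_14_16 had a log2 difference of -4.33 (adjusted p = 0.284) and hsat3_3_1 one of -1.55 (adjusted p = 0.284). Chromosome 9 made up more of the HSat3 reads in TOP2A than in TOP2B in 4 of 4 replicas with etoposide, by 1.93, 1.60, 0.97 and 11.98 points. The mean was 4.12 (SD 5.25), or 1.498 without replica 4 and 0.36 without hsat3_9_3.

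With mitoxantrone neither pulldown gave a call against input. The doses of the drugs differ, so their values are only set side by side. The HSat3 share of TOP2A differed from input by -0.03, 2.35 and -0.30 on the log2 scale (mean 0.67, SD 1.46; -0.17 without replica 2). TOP2B differed by 0.06, 1.33 and -0.58 (mean 0.27, SD 0.97; -0.26 without replica 2). For TOP2A, 0 of 78 regions passed (0% of all; 0 unadjusted beside 2.84%; DESeq2 and limma-voom 0), 40 estimates were below 0 beside 55.2% of all and the median was -0.02. For TOP2B, 0 passed (0% of all; 0 unadjusted beside 1.75%; DESeq2 and limma-voom 0), 59 estimates were below 0 beside 57% of all and the median was -0.21. Chromosome 9 stood at a pooled ratio to input of 1.14 in both pulldowns with mitoxantrone, but at 0.825 in TOP2A and 0.620 in TOP2B without replica 1. The acrocentric chromosomes stood at 0.839 in TOP2A and 0.789 in TOP2B, and replica 3 had a lower chromosome 9 part in both pulldowns than in input. TOP2A against TOP2B with mitoxantrone had 0 calls (0%), with 0 HSat3 regions at an unadjusted p under 0.05 beside 0.437% of all regions.

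**Figure D5:**
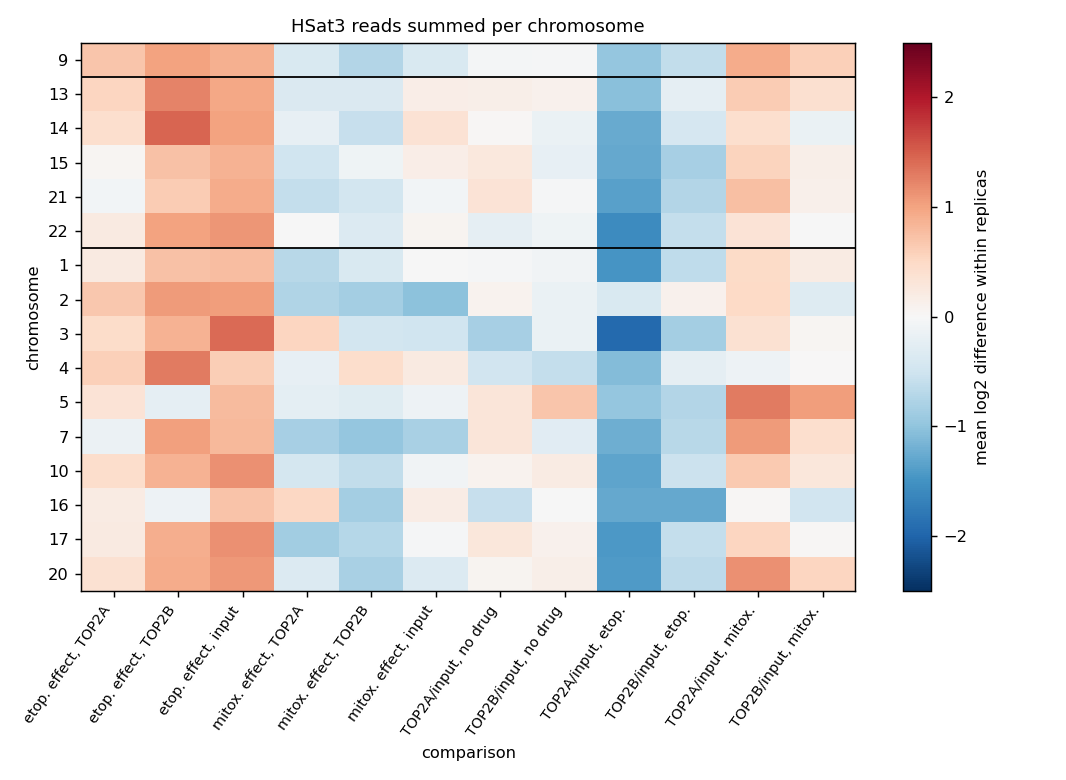
Mean log2 difference within replicas of the HSat3 sum of each chromosome (rows: 9, then the acrocentric chromosomes, then the others) in 12 comparisons (columns). With etoposide, TOP2A against input is below 0 in all rows, from -0.38 on chromosome 2 to -1.94 on chromosome 3, while with mitoxantrone it lies between -0.13 and 1.29.

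Whether a drug changed the difference between pulldown and input was tested as an interaction. For etoposide and TOP2A, 0 of 78 HSat3 regions passed (0% of all, edgeR; DESeq2 and limma-voom 0), and 8 had an unadjusted p under 0.05 beside 4.01% of all. The estimates were below 0 in 65 of 78, beside 62.2% of all, with a median of -0.70 beside -0.19, and the share itself moved by -0.47, -0.41, 1.21 and -2.79 in the 4 replicas (mean -0.62, SD 1.65). hsat3_14_16 had the lowest p at -4.14 (SE 1.34, adjusted p = 0.866), lower in 4 of 4 replicas matched by number. For hsat3_17_4 the interaction was -1.55 (SE 0.65) and for hsat3_22_10 it was -1.19, both with an adjusted p of 0.866. Lower TOP2A than input was thus called with etoposide and not without, but a difference between the treatments was not called.

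The other interactions gave 0 calls as well (0% of all regions in each, edgeR; DESeq2 and limma-voom 0). For etoposide and TOP2B 1 HSat3 region had an unadjusted p under 0.05 (0.51% of all), hsat3_20_1, higher in 4 of 4 replicas at 1.55 (SE 0.70). For mitoxantrone the counts were 0 for TOP2A (0.146% of all) and 0 for TOP2B (0.219%). For the change in TOP2A less that in TOP2B, 8 had an unadjusted p under 0.05 with etoposide (4.3% of all) and 0 with mitoxantrone (0.364%). The TOP2B share less that of input was lower with mitoxantrone in 3 of 3 replicas, by -0.05, -0.69 and -0.52 (mean -0.42, SD 0.33).

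The 17 regions that passed with etoposide were counted by subfamily and by position. Of the 49 tested regions led by an A subfamily, 16 passed and the median was -1.79; of the 28 led by a B subfamily, 1 passed (hsat3_15_2) and the median was -1.37. Of the 41 with A4 anywhere in the name, 13 passed, and of the 37 others, 4. By position 12 of 50 tested acrocentric regions passed (median -1.67), 5 of 25 on other autosomes (-1.59) and 0 of 3 on chromosome 9 (-1.36). The split by A4 was chosen after the values were seen and is a description. The tested regions include those that passed the filter on low counts only through the mitoxantrone libraries. In the same TOP2A libraries etoposide against no drug, which shares them, gave estimates above 0 in 5 of 28 regions with A4 and in 20 of 30 without. For input with and without mitoxantrone the order was the reverse, with estimates above 0 in 40 of 47 regions with A4 (median 0.26) and in 4 of 39 without (median -0.39).

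Over the 42 libraries the HSat3 share was high where the shares of some other repeat classes were high, and not of others. Pearson's r of the log2 shares was 0.961 with HSat2 (Spearman's rho 0.931) and 0.956 with the higher-order alpha satellite (0.913), and it was -0.905 with the class named ct, the centromeric transition regions. Within replica and treatment r was 0.934, 0.901 and -0.725. It was 0.907 with divergent higher-order and 0.880 with monomeric alpha satellite, 0.468 with HSat1A and 0.319 with beta satellite. With the classes named censat, rDNA, HSat1B and gamma satellite it was 0.131, 0.0525, 0.0108 and -0.294. These classes are parts of the same library totals and share depth, so the values are a description over 42 libraries. With etoposide, TOP2A against input called 6 of 40 HSat2 regions lower (median -1.92), 9 of 123 monomeric alpha satellite regions lower and 0 of 601 ct regions (median -0.02). Of the HSat3 regions not on autosomes 1 of 25 passed.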

How the data were processed

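The deposited values were read counts per named region, 1 table for the series, made by the authors on the CHM13 telomere-to-telomere assembly with Trimmomatic 0.36, BWA 0.7.17 and HTSeq 2.7.13, per the submitters' processing notes. The 5 tally rows that name no region were kept out of tests and totals. No genome sequence, coordinates or region lengths were used here.

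CPM is reads per 1000000 region reads. Log2 differences of shares within a replica used a pseudocount of 0.5 reads. Regions were tested with edgeR 4.0.16 (quasi-likelihood, TMM, filterByExpr with a minimum count of 10, R 4.3.3) and Benjamini-Hochberg adjustment over all regions tested. Drug was compared within each series without a block. In the mitoxantrone series, the deviations from group means of same-numbered drug and no-drug libraries correlated in 9 of 9 pairs (r 0.335 to 0.840 over 912 regions), so by the data these numbers pair the libraries. Pulldowns and input were compared over all 42 libraries with the 14 combinations of replica and treatment as a block. DESeq2 1.42.0 and limma-voom (limma 3.58.1) were alternatives. The pipeline was tested on simulated data. There, etoposide against no drug in TOP2A recovered 8% of 2-fold and 42% of 4-fold changes. TOP2A against input with etoposide recovered 23% and 67%. Each of these comparisons had 3 false calls. A comparison with 0 calls therefore does not exclude changes of this size. Of 54 pairs of libraries within a group, 0 had identical counts.

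Named regions were the 10 with the highest mean CPM. For each comparison they were also up to 8 regions per direction with the largest fold among those past an adjusted p of 0.05 with 20 or more reads on average or, where none passed, the 2 with the lowest unadjusted p in each direction. The HSat3 sum of each chromosome and the sums of other classes were also named. The members and lists were chosen with earlier results of these data known.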

Additional observations from a re-analysis of the deposited data

Results flagged for a closer look

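In groups of 4 to 10 samples, 9 of 72 groups examined had a sample far from the others. Chance alone does this in about 1 group in 20 where groups are independent. These groups are not: HSat3 and its chromosome groups were examined in the same libraries, and the same replicas return below. The 9 of 72 therefore cannot be read as an excess over chance.

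In TOP2B libraries with etoposide, chromosome 9 made up 30.6% of the HSat3 reads in replica 3 and 11.9% to 12.9% in the others. In input without drug of the etoposide series, HSat3 was 1.44% of region reads in replica 2 and 0.148% to 0.284% in the others.

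For etoposide against no drug in TOP2A libraries, replica 3 stood apart: the HSat3 share differed by 2.56 on the log2 scale there and by -0.59 to -0.11 in the other replicas. On the acrocentric chromosomes the difference was 2.31 in replica 3 and -0.76 to -0.25 in the others. That replica's etoposide libraries were shallow (23900 region reads in TOP2A).

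For TOP2A against input without drug, mitoxantrone replica 2 stood apart. The HSat3 share differed by 3.42 on the log2 scale there and by -1.71 to -0.08 in the other 6 replicas. On chromosome 9 the difference was 3.16 (others -1.85 to 0.22), on the acrocentric chromosomes 3.49 (others -1.74 to 0.17) and on the other autosomes 3.49 (others -1.61 to -0.06). Against TOP2B, the other autosomes differed by 1.61 in that replica and by -0.51 to 0.02 in the rest. Its TOP2A library had 43988 region reads.

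The chromosome 14 sum of TOP2B less input moved up with etoposide in every replica (0.95, 0.07, 0.71 and 0.06; mean 0.45) and down with mitoxantrone in every replica (-0.07, -2.28 and -0.44; mean -0.93). The difference of 1.38 between the drugs was not tested, and their doses differ.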

How the results depend on the processing

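Of the mean differences that carry no test, 69 of 672 recomputed means of the HSat3 shares and 42 of 315 of the parts of HSat3 changed sign, most of them when a replica was left out. Of all recomputed values and counts that answer a comparison, 1506 kept their call or stayed within the spread. A further 21 moved, 13 were stronger and 9 were weaker. Leaving out a replica cannot move a mean by as much as the SD over replicas. The 336 such means of the shares and 252 of the parts therefore stayed within the spread by construction and are no sign of stability. For TOP2A against input with etoposide, the 17 HSat3 regions became 8 when scaled by region reads, 9 when scaled by region and unassigned reads, 34 without a filter, 0 with limma-voom and 35 without the 6 libraries under 100000 region reads, an alternative chosen after seeing the depths. With DESeq2 they became 19, which held 15 of the 17. Leaving out a replica gave 0 to 35. The chromosome sums, 0 in the main fit, became 1 under each of both scalings, no filter and limma-voom, 12 without the shallow libraries, and 0 to 13 when leaving out a replica. Each of the 17 regions stayed below 0 in every alternative that tested it. Limma-voom called 4 regions for TOP2A against input without drug and 6 for TOP2B against input with etoposide. Without the shallow libraries 2 passed for TOP2A against TOP2B with etoposide. The cause of these changes was not tested. Leaving out a replica, chosen after seeing the data, moved the pooled ratio of TOP2A to input with etoposide between 0.251 and 0.450 for all HSat3, 0.276 and 0.561 on chromosome 9, 0.239 and 0.426 on the acrocentric chromosomes and 0.246 and 0.432 on the others.

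Without hsat3_9_3 the mean log2 difference of chromosome 9 moved from -0.02 to -0.70 for TOP2A against TOP2B without drug. It moved from 0.00 to 0.79 and from 0.34 to 0.98 for the change with mitoxantrone in TOP2A less that in input and less that in TOP2B. The chromosome 9 part of HSat3 gained 1.32 points with etoposide in TOP2A in place of 4.58, and for TOP2A against input with etoposide it went from 4.49 to -0.02. The part of the other autosomes turned from -0.85 to 1.82 points for TOP2B against input with mitoxantrone and from -0.49 to 0.65 for that drug's change in TOP2B less input. It fell from 1.18 to 0.094 for TOP2A against TOP2B with mitoxantrone.

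In the etoposide series same-numbered drug and no-drug libraries deviated together in 9 of 12 pairs (r over 0.1; range -0.495 to 0.937), so the numbers were not taken to pair them. With a replicate block the drug comparisons of both series still called 0 HSat3 regions. Pulldown and input deviated together in 25 of 28 pairs (r over 0.1). For TOP2A and input with etoposide, the comparison with the 17 calls, r was 0.665, 0.596, -0.047 and -0.534 in replicas 1 to 4. There the data bear out the block in replicas 1 and 2 and not in replicas 3 and 4. Without the replicate block TOP2A against input with etoposide gave 0 HSat3 regions in place of 17. The 6 shallow libraries limit the precision of single regions.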
